A study of Mus musculus with 15 samples.

Results

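Described here are the potassium channel genes Kcnf1, Kcna3, Kcnn4, Kcnab2 and Kcnk6, 5 of the 17594 genes in the deposited table and 5 of its 75 genes whose symbol starts with Kcn. They were picked by name with earlier results of these libraries known, Kcnf1 for its level in knockout Treg cells, so the levels of Kcnf1 are given as a description without a test. RNA was sequenced from sorted spleen cells of C57BL/6 mice. Treg are the regulatory CD4 T cells, marked by Foxp3, that restrain other immune cells, and Tconv are the conventional CD4 helper cells, which lack Foxp3. The groups were Treg KO, Treg cells of animals with a conditional Hpgd knockout crossed to Foxp3-Cre-YFP (4 libraries), Treg WT, Treg cells of animals labelled wild-type (4 libraries), Tconv KO, Tconv cells of the knockout animals (4 libraries), and Tconv WT, Tconv cells of wild-type animals (3 libraries). Hpgd encodes an enzyme that breaks down prostaglandins, and the Foxp3-Cre driver is active in cells that express Foxp3, so Tconv KO cells come from knockout animals but are not the cells in which the driver is meant to act.

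Potassium channels let potassium leave the cell and hold the membrane potential negative inside, which keeps calcium flowing in after the T cell receptor is engaged. In T cells this is best known for a voltage-gated channel built from Kcna3 and a calcium-activated channel built from Kcnn4. Kcnab2 is a cytosolic beta subunit of Kcna channels, Kcnk6 belongs to the tandem pore domain family of leak channels, and Kcnf1 is an electrically silent subunit that forms no channel alone and modifies other voltage-gated channels. Age, sex and the number of animals are not stated in the labels, nor whether a Treg and a Tconv sample share an animal.

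Promoter sequences are shown for Kcnf1, whose transcript separates the genotypes, and for Kcnn4 and Kcnab2, the pair of genes that were lower in Treg KO than in Treg WT. They come from RefSeq (GRCm38.p6), run from 250 bases before to 50 after the annotated start on the gene's own strand, and are written 5′ to 3′. Capitals mark 3 short motifs on either strand, which do not overlap one another in these windows: TGTGGT (the core that RUNX factors recognise), TGACG (part of the cAMP response element) and GGAAA (the core that NFAT factors recognise).
Kcnf1 (chr12:17176839-17177138, minus strand): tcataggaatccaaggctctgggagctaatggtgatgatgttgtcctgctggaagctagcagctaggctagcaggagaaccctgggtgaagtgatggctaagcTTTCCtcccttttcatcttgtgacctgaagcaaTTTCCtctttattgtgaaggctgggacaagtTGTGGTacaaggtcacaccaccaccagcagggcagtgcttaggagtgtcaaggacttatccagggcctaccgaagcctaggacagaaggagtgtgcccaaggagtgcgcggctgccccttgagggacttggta
Kcnn4 (chr7:24370013-24370312, plus strand): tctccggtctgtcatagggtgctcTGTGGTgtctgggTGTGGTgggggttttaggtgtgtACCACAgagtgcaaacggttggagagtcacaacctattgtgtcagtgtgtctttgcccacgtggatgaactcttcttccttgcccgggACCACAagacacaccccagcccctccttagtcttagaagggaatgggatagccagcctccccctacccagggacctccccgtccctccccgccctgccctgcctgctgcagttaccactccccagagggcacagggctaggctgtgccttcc
Kcnab2, outermost of 3 starts (chr4:152477500-152477799, minus strand): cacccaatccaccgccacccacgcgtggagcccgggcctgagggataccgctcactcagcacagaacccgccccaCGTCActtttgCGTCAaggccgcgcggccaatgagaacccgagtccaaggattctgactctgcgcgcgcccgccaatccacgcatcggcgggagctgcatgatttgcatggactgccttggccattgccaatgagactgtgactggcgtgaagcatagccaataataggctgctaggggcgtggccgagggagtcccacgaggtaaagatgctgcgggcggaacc

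The Kcnf1 window held 1 match to TGTGGT, beginning 83 bases before the start, and 2 to GGAAA. The Kcnn4 window held 4 matches to TGTGGT and none of the other motifs. Of 32851 mouse promoter windows of this length, 16.8% held TGTGGT at least once and 15 held it 4 or more times. The Kcnab2 window held 2 matches to TGACG, a motif found in 20.8% of windows, while GGAAA was found in 61.3%. None of the 3 windows held TATAAA, which 13.6% of windows did. CpG dinucleotides numbered 3 in the Kcnf1 window, 6 in that of Kcnn4, 25 in that of Kcnab2 and 37 in that of Kcna3, against a median of 7 over all windows. These matches describe letters in the reference sequence and say nothing of binding in these cells.

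Values are normalized signal, gene counts divided by 1 size factor per library, and are not corrected for gene length. The reads assigned to genes ranged from 2.64 to 4.71 M (mega-reads) in Treg KO, 6.43 to 10.0 M in Treg WT, 2.95 to 10.3 M in Tconv KO and 6.60 to 11.1 M in Tconv WT. The label of the cells held against its markers: Foxp3 averaged 4046 ± 541 in Treg KO and 4502 ± 369 in Treg WT, 40.8 ± 22.5 in Tconv KO and 17.1 ± 3.14 in Tconv WT (SD, n = 4, 4, 4 and 3), and Cd4 and Cd3e were high in all 15 libraries. The targeted gene could not check the genotype, because Hpgd had 0 reads over the 8 KO libraries and 1 over the 7 WT libraries together. Xist, the RNA of the inactive X chromosome, was between 8644 and 19007 in the 8 KO libraries and between 0 and 5.52 in the 7 WT libraries, while the Y-linked Ddx3y was at 0 in the 8 KO libraries and between 1154 and 1520 in the 7 WT libraries. The sample numbers split by genotype too, from 483 to 490 in WT and from 574 to 581 in KO. What these 2 runs of numbers stand for is not stated. The sex of the animals, the run of sample numbers and the genotype therefore cannot be told apart in any value below.

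Kcnf1 transcript was present in every KO library and close to absent in every WT library, in Tconv as well as in Treg. The gene lies at chr12:17172100-17176888 (GRCm38, minus strand, ENSMUSG00000051726.6) and has a single annotated transcript of 4789 bases. Its normalized signal was 162, 206, 181 and 296 in Treg KO, against 3.43, 4.83, 4.07 and 4.43 in Treg WT. In Tconv KO it was 131, 106, 57.2 and 81.7, against 0, 0.527 and 0.687 in Tconv WT. The order of the groups was Treg KO, Tconv KO, Treg WT, Tconv WT, and no library of one group reached into the range of the next.

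Behind these levels stood 587 reads in Treg KO, 24 in Treg WT, 344 in Tconv KO and 2 in Tconv WT. Pooled over libraries, that is 37.7 reads per mega-read in Treg KO and 0.718 in Treg WT, a ratio of 52.5 (95% exact interval 34.9 to 82.6). It is 15.9 reads per mega-read in Tconv KO and 0.0760 in Tconv WT, a ratio of 209 whose interval runs from 57.6 to 1737 because only 2 reads support the lower value. Reads carry no molecular identifiers, so these intervals cover counting error only and leave out the spread between animals. On the log2(value + 1) scale the differences were 5.32 ± 0.28 (SE) for Treg KO against Treg WT and 6.05 ± 0.30 for Tconv KO against Tconv WT, and the pseudocount understates both.

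Within a genotype Kcnf1 was higher in Treg than in Tconv. Its mean in Tconv KO was 44.5% of that in Treg KO, and its mean in Tconv WT was 9.66% of that in Treg WT, values that rest on 24 and 2 reads. Foxp3 in Tconv KO was 1.008% of its level in Treg KO and Il2ra, the high-affinity interleukin-2 receptor chain, 1.51%. The other Treg markers had larger shares in Tconv KO, with 13.9% for the inhibitory receptor Ctla4, 16.2% for the transcription factor Ikzf2 and 25.9% for the receptor Tnfrsf18. Across the 4 Tconv KO libraries Foxp3 was 47.2, 69.5, 27.6 and 18.9. The part of Treg cells in the Tconv KO value of Kcnf1 was not tested. In bulk samples, fewer cells with a transcript and less transcript per cell cannot be told apart.

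The genes next to Kcnf1 did not share its pattern in size. Of the 3 nearest table genes on each side, 4 were tested. Rock2, a kinase that acts on the actin cytoskeleton, was higher in Treg KO than in Treg WT by 0.42 ± 0.09 on the log2 scale (adjusted p = 0.006). Pqlc3 differed by 0.44 ± 0.15 (adjusted p = 0.051), Nol10 by 0.16 ± 0.16 and Pdia6, a disulfide isomerase of the endoplasmic reticulum, by -0.08 ± 0.08, and none of these 3 passed. The lowest coordinate of the nearest of them, Pdia6, lies 94.4 kb from that of Kcnf1. No other annotated gene overlaps Kcnf1 in GENCODE vM21.

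**Figure D1:**
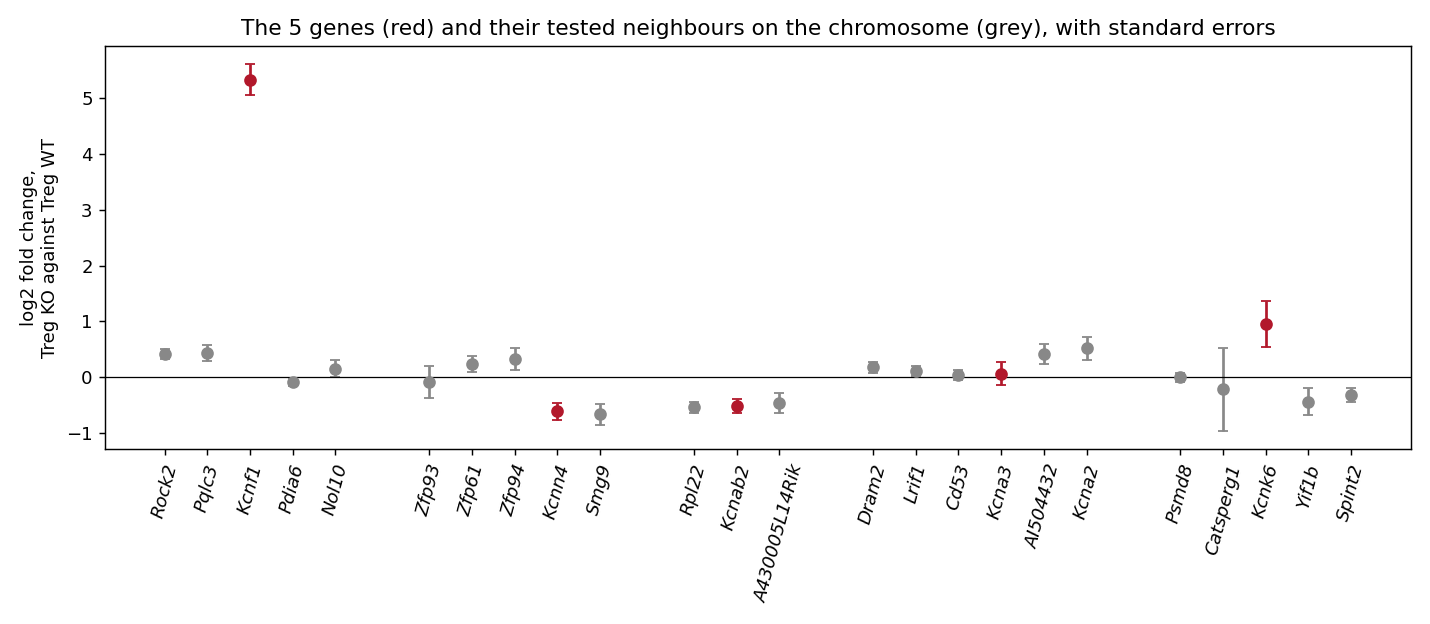
Log2 fold change of Treg KO against Treg WT (vertical axis, with standard errors) for the 5 genes (red) and those of their 3 nearest table genes on each side that were tested (grey), in chromosome order. Kcnf1 stands at 5.32 while its 4 tested neighbours lie between -0.08 and 0.44. Kcnn4 and Kcnab2 each have a neighbour at about their own value, where 21.5% of all genes were called.

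Kcnf1 is best known in brain, and of 6 neural markers Snap25 and Syt1 had 0 reads in both Treg groups. The summed signal of the 6 was 53.5 to 231 in Treg KO and 66.5 to 76.8 in Treg WT, and 20.01 to 110 in Tconv KO and 30.7 to 41.9 in Tconv WT. Most of it was Map2, with 137 ± 72.5 in Treg KO and 66.1 ± 3.80 in Treg WT (adjusted p = 0.34), and its part in the Kcnf1 signal was not tested.

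The genes most like Kcnf1 over the 15 libraries, out of 8609 compared by Pearson's r of log2(value + 1), were Xist (r = 0.96), Mki67 (r = 0.93) and Ncapg2 (r = 0.91). Mki67, a marker of cycling cells, averaged 898 ± 79.3 in Treg KO and 216 ± 79.9 in Treg WT, and 435 ± 155 in Tconv KO and 149 ± 19.6 in Tconv WT. Ncapg2, a condensin subunit, averaged 97.4 in Treg KO and 32.2 in Treg WT, and 49.7 in Tconv KO and 22.99 in Tconv WT. The 15 points share the split between genotypes, so r mostly restates that split.

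**Figure D2:**
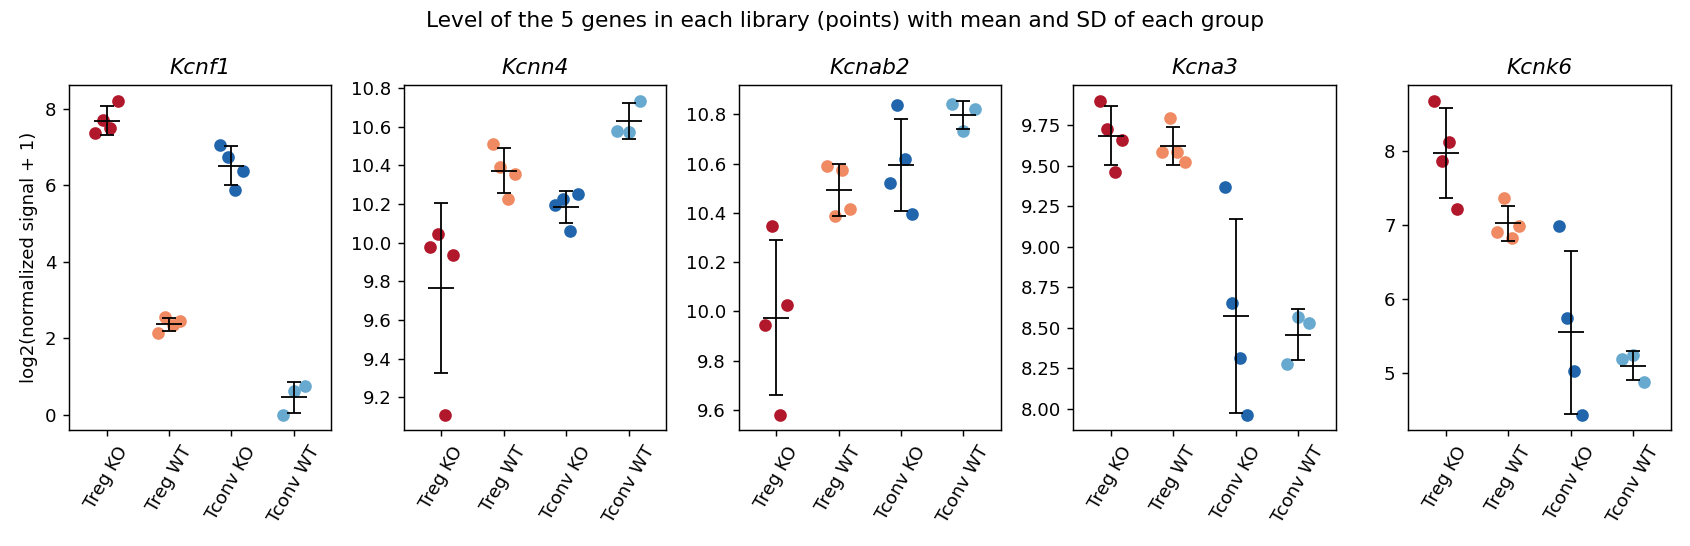
Normalized signal of each gene in each library as log2(value + 1) (vertical axes, each with its own range that does not start at 0), by group, with group means and SD in black. Kcnf1 separates KO from WT, within each genotype Kcna3 and Kcnk6 are higher in Treg than in Tconv, and Kcnn4 and Kcnab2 are lowest in Treg KO.

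Kcnn4 transcript, for the calcium-activated channel, fell in Treg KO. The gene lies at chr7:24370263-24386690 (GRCm38, plus strand, ENSMUSG00000054342.8). Its normalized signal was 1008, 1054, 552 and 978 in Treg KO, against 1459, 1341, 1199 and 1308 in Treg WT. Every Treg KO library lay below every Treg WT library, and Treg KO replicate 3, which also had the fewest reads of all libraries, was lowest. The log2 difference was -0.60 ± 0.15 (limma, adjusted p = 0.013), in a comparison in which 21.5% of 11314 genes passed an adjusted p of 0.05. Without Treg KO replicate 3 the difference was -0.39, and in a fit of the Treg libraries alone the adjusted p was 0.052.

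In Tconv the values of Kcnn4 had the same order without passing. They were 1173, 1196, 1069 and 1220 in Tconv KO, against 1527, 1520 and 1704 in Tconv WT, and the groups did not overlap. The log2 difference was -0.44 ± 0.17 (adjusted p = 0.30), where 0.681% of genes passed. When Treg KO replicate 3 was left out of the common fit, the same difference had an adjusted p of 0.0086. The difference between the genotype effects in Treg and in Tconv was -0.16 ± 0.23 and did not pass (adjusted p = 0.88), with 0.150% of genes passing that test.

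Kcnab2, the beta subunit, fell in Treg KO together with Kcnn4. It lies at chr4:152390742-152477871 (GRCm38, minus strand, ENSMUSG00000028931.11). Its signal was 984, 1302, 765 and 1042 in Treg KO, against 1541, 1337, 1522 and 1364 in Treg WT. The highest Treg KO library lay just under the lowest Treg WT library. The log2 difference was -0.52 ± 0.13 (adjusted p = 0.012), but it was -0.20 with an adjusted p of 0.145 once the trend of fold change on GC content was removed, and the longest Kcnab2 transcript has a GC content of 58.0%. In Tconv the signal was 1467, 1828, 1571 and 1347 in Tconv KO, against 1833, 1699 and 1807 in Tconv WT, with overlap and an adjusted p of 0.57.

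Both genes have a tested neighbour on the chromosome that was also lower in Treg KO, in a comparison in which 21.5% of all genes were called. Smg9, a factor of nonsense-mediated decay whose start lies 29.4 kb from that of Kcnn4, averaged 215 in Treg KO and 329 in Treg WT (log2 difference -0.66, adjusted p = 0.023). The 3 Zfp genes on the other side of Kcnn4 did not pass, with adjusted p from 0.23 to 0.87. Rpl22, a ribosomal protein gene whose lowest coordinate lies 65.0 kb from that of Kcnab2, averaged 1512 in Treg KO and 2188 in Treg WT (log2 difference -0.54, adjusted p = 0.002). The other tested neighbour of Kcnab2, A430005L14Rik, did not pass (-0.46 ± 0.18, adjusted p = 0.079). The start of Nphp4 overlaps that of Kcnab2 on the opposite strand, but Nphp4 had a mean of at most 6.78 in any group.

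Kcna3, the voltage-gated channel of T cells, differed by cell type, and its genotype differences did not pass. It lies at chr3:107036169-107038070 (GRCm38, plus strand, ENSMUSG00000047959.4). Its signal was 955, 844, 702 and 805 in Treg KO and 767, 886, 766 and 733 in Treg WT, ranges that overlap. It was 659, 402, 317 and 249 in Tconv KO and 309, 378 and 369 in Tconv WT. The Tconv KO libraries ranged over more than the whole Tconv WT group on both sides, and replicate 1 was near the Treg range.

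Treg exceeded Tconv in Kcna3 by 1.16 ± 0.23 on the log2 scale in WT (adjusted p = 0.0017) and by 1.11 ± 0.21 in KO (adjusted p = 8.8e-04), without overlap in either genotype. In these comparisons 18.1% of genes passed in WT and 31.4% in KO. The genotype differences were 0.06 ± 0.21 in Treg (adjusted p = 0.85) and 0.12 ± 0.23 in Tconv (adjusted p = 0.86), and the Tconv value was -0.15 without Tconv KO replicate 1. With the trend on GC content removed the genotype differences of Kcna3 were 0.49 ± 0.21 in Treg (adjusted p = 0.13) and 0.32 ± 0.23 in Tconv (adjusted p = 0.62). An antisense gene, Gm27008, covers the whole of Kcna3 on the other strand and is not in the table. Whether reads were counted by strand is not stated, so reads of the antisense gene and of Kcna3 cannot be told apart.

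Kcna3 has 2 neighbours within 65.0 kb. AI504432, a noncoding RNA that begins 3.33 kb downstream of the start of Kcna3 on the same strand, averaged 2738 in Treg KO and 2020 in Treg WT, and 1187 in Tconv KO and 957 in Tconv WT. It followed the same order of cell types as Kcna3 at a higher level. Kcna2, a related voltage-gated subunit, averaged 86.9 ± 28.8 in Treg KO and 58.13 ± 5.004 in Treg WT (adjusted p = 0.082), and 54.7 ± 7.33 in Tconv KO and 64.7 ± 17.7 in Tconv WT (adjusted p = 0.72). The genes most like Kcna3 over the libraries were Myo1e (r = 0.99), Map6 (r = 0.98) and Dst (r = 0.98), all higher in Treg, and the points share the split between cell types.

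Kcnk6, of the tandem pore domain family, also had more transcript in Treg than in Tconv. It lies at chr7:29221926-29232515 (GRCm38, minus strand, ENSMUSG00000046410.10). Its signal was 412, 234, 278 and 148 in Treg KO, against 119, 165, 112 and 126 in Treg WT. Treg KO replicates 1 to 3 lay above all Treg WT libraries, and replicate 4 lay among them. The difference was 0.96 ± 0.41 (adjusted p = 0.109) and did not pass. It passed with DESeq2 (1.04, adjusted p = 0.041), in a fit of the Treg libraries alone (adjusted p = 0.040), and without Tconv KO replicate 1 (adjusted p = 0.027).

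In Tconv Kcnk6 was 126, 52.4, 31.5 and 20.6 in Tconv KO, against 35.3, 36.9 and 28.2 in Tconv WT. The Tconv WT libraries lay within the spread of Tconv KO, and the log2 difference was 0.45 ± 0.45 (adjusted p = 0.71), or -0.03 without Tconv KO replicate 1. Treg exceeded Tconv by 1.93 ± 0.45 in WT (adjusted p = 0.0061) and by 2.43 ± 0.41 in KO (adjusted p = 3.9e-04), without overlap. The transcripts most like Kcnk6 were those of Ttn (r = 0.99), Fam129a (r = 0.99) and Lilrb4 (r = 0.98), which are also higher in Treg. None of the 4 tested neighbours of Kcnk6 passed in Treg KO against Treg WT.

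Tconv KO replicate 1 stood apart in several of these genes. It was the highest of its group in Kcnf1, Kcna3 and Kcnk6, and also in Kcnq5, with 143 against 43.9 to 66.1 in the other Tconv KO libraries. It had 3195 of Ikzf2, a transcription factor enriched in Treg, against 366 to 1215 in the other Tconv KO libraries, and 668 of Mki67 against 345 to 370. Its Foxp3 of 47.2 lay inside the range of its group. Its summed signal of B cell markers was 329 and that of CD8 T and NK cell markers 1185, the highest of its group in both. Most of the first sum was Cd22, at 306, and most of the second was Eomes, at 778. Cd79b was 5.70 to 21.0 in Tconv KO, with its highest value in replicate 1, and 3.16 to 8.13 in Tconv WT. Cd8b1 was 54.2 to 81.7 in Tconv KO, with its highest value in replicate 4, and 47.4 to 70.1 in Tconv WT. The part of these marker signals in the channel values of Tconv KO replicate 1 was not tested.

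Kcnn4 and Kcnab2 did not pass between the WT cell types and did between the KO cell types. In WT, Treg was lower than Tconv by -0.26 ± 0.17 for Kcnn4 (adjusted p = 0.34) and by -0.31 ± 0.14 for Kcnab2 (adjusted p = 0.15). In KO, the differences were -0.42 ± 0.15 (adjusted p = 0.049) and -0.62 ± 0.13 (adjusted p = 0.0018). The Kcnn4 call in KO was lost in 11 of the 15 fits that left out 1 library. Treg KO libraries enter both this comparison and the one against Treg WT, and whether the cell type difference changed with genotype is the interaction, which neither gene passed (Kcnab2 -0.31 ± 0.19, adjusted p = 0.66).

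Because Kcnn4 and Kcna3 supply the main T cell potassium conductances, the ratio of their signals is given per library. It was 1.06, 1.25, 0.785 and 1.21 in Treg KO, against 1.90, 1.51, 1.56 and 1.78 in Treg WT. It was 1.78, 2.97, 3.37 and 4.90 in Tconv KO, against 4.94, 4.02 and 4.62 in Tconv WT. Treg KO lay below Treg WT without overlap, both lay below the 3 Tconv WT libraries, and Tconv KO spread across the gap. Per kb of the longest annotated transcript the order of the genes was Kcna3, Kcnab2, Kcnn4, Kcnk6, Kcnf1 in Treg KO, with 435, 261, 247, 65.7 and 44.1 signal per kb. In Treg WT it was 414 for Kcna3, 367 for Kcnab2, 365 for Kcnn4, 32.0 for Kcnk6 and 0.875 for Kcnf1. The transcript length annotated for Kcna3, 1902 bases, is a multiple of 3 and may hold the coding part only, which would raise its value per kb.

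**Figure D3:**
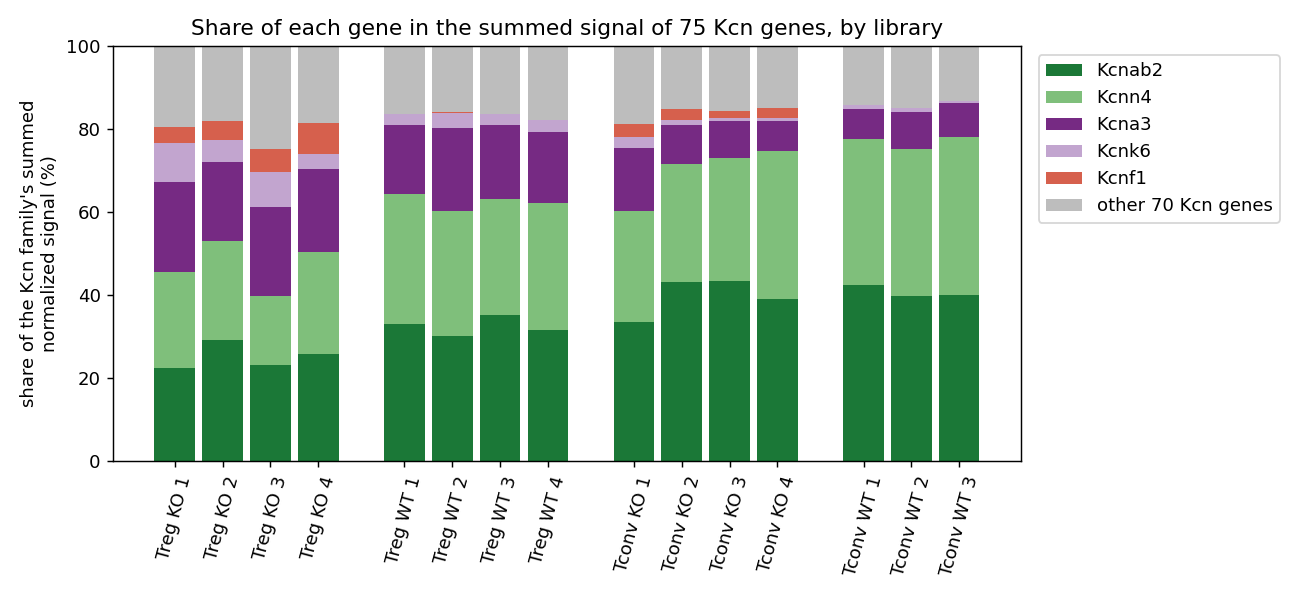
Share of each of the 5 genes, and of the other 70 Kcn genes together, in the summed normalized signal of all 75 Kcn genes (vertical axis, percent), 1 bar per library. Kcnf1 takes 3.71% to 7.36% in Treg KO and 0.0736% to 0.109% in Treg WT, while the shares of Kcnab2 and Kcnn4 are smaller in Treg KO than in Treg WT.

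As parts of the family's summed signal, which averaged 4032 ± 524 in Treg KO and 4426 ± 166 in Treg WT, Kcnf1 made up 5.30% ± 1.55 in Treg KO and 0.0950% ± 0.0154 in Treg WT. Kcnn4 made up 22.0% ± 3.54 in Treg KO and 29.9% ± 1.497 in Treg WT, and Kcnab2 25.2% ± 3.11 in Treg KO and 32.6% ± 2.22 in Treg WT. Kcna3 made up 20.54% ± 1.25 in Treg KO and 17.8% ± 1.51 in Treg WT. In Tconv, Kcnf1 made up 2.37% ± 0.585 in Tconv KO and 0.00920% ± 0.00810 in Tconv WT, and Kcnab2 39.9% ± 4.67 in Tconv KO and 40.8% ± 1.44 in Tconv WT. These sums are not corrected for length.

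Of the 75 Kcn genes, 24 passed the filter on low values (at least 10 in at least 3 libraries), among them all 5 described here, 42 had reads but did not pass and 9 had none. Kcnf1 is left out of the counts that follow, since it was chosen for its level in these libraries. In Treg KO against Treg WT 3 of the other 23 were called, Kcnq5 higher and Kcnn4 and Kcnab2 lower, against a background of 21.5%. The median log2 difference of the 23 was 0.07, against -0.0003 over all genes tested. In Tconv KO against Tconv WT, where 0.681% of all genes were called, none of the 23 was called by limma, edgeR or DESeq2. With each tool 3 of the 23 had an unadjusted p under 0.05, and with limma 1358 of the 11314 genes tested did.

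Kcnq5, a voltage-gated subunit of the family that carries the M current in neurons, was the other Kcn gene that rose in Treg KO. It had 181, 158, 179 and 195 in Treg KO, against 109, 114, 108 and 86.9 in Treg WT. The groups did not overlap, and the log2 difference was 0.77 ± 0.25 (adjusted p = 0.038). This call was lost without the level filter (adjusted p = 0.053), with the GC trend removed (0.083), with thinned reads (0.14) and in 7 of the 15 fits that left out 1 library, those without Treg KO replicates 1, 3 and 4 and without each Treg WT library, where the adjusted p ran from 0.058 to 0.104. In Tconv it averaged 79.6 ± 43.7 in Tconv KO and 59.95 ± 2.26 in Tconv WT (adjusted p = 0.71).

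Between the cell types calls went both ways, but the lower side in WT rests on genes that passed the filter through Tconv alone. In WT, 8 of the 23 were called, 5 higher in Treg (Kcna3, Kcnk6, Kcnj15, Kcnh4 and Kcnip2) and 3 lower (Kcnc1, Kcnc2 and Kcnj8), where 18.1% of all genes were called. Of these 8, Kcnj15, Kcnh4, Kcnc1, Kcnc2 and Kcnj8 passed the filter only through the cell type where they are high. That favours a difference in them, so the count is no support for a change of the family. Kcna3, Kcnk6 and Kcnip2 passed the filter in both cell types, and all 3 were higher in Treg. Kcnj15, an inward rectifier, was between 10.5 and 19.5 in Treg WT and had 0 reads in all 3 Tconv WT libraries. Measured against a floor of 3 reads over the group, it was at least 23.6-fold higher in Treg WT. It was between 10.7 and 34.8 in Treg KO with 0 reads in all 4 Tconv KO libraries, at least 26.8-fold higher by the same floor.

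Kcnj8, an inward rectifier that forms ATP-sensitive channels, had the opposite pattern, with 0 reads in the 8 Treg libraries. It had 15.7, 17.1, 11.8 and 18.3 in Tconv KO and 5.42, 0.527 and 13.1 in Tconv WT, so Treg KO was at least 15.1-fold lower than Tconv KO and Treg WT at least 11.004-fold lower than Tconv WT. Tconv WT replicate 3 held 19 of the 26 Kcnj8 reads in Tconv WT, the limit without it was 4.40-fold, and the WT call was lost without it, without Tconv WT replicate 1 and with thinned reads. Kcnc1, a fast voltage-gated subunit, had 1 read over the 4 Treg KO libraries and 0 over the 4 Treg WT libraries, against 79 reads in Tconv KO and 79 in Tconv WT. Treg WT was at least 33.4-fold lower than Tconv WT in Kcnc1. Kcnip2, a cytosolic subunit of Kcnd channels, had a mean of 116 ± 19.1 in Treg KO against 46.2 ± 14.7 in Tconv KO, and 121 ± 22.1 in Treg WT and 41.7 ± 13.2 in Tconv WT.

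In KO, 16 of the 23 were called between Treg and Tconv, 8 higher and 8 lower, where 31.4% of all genes were called. Of the 16, 7 passed the filter through a single cell type, Kcnab3, Kcnj15, Kcnc1, Kcnc2, Kcnh3, Kcnip3 and Kcnj8. The filter favours a difference in these 7, so the count is no support for a change of the family. The other 9 passed the filter in both cell types. Beside the genes already named, Kcna2, Kcnd1, Kcnab3 and Kcnq5 were higher in Treg KO, by 0.61 to 1.34 on the log2 scale, and Kcnh3, Kcnip3 and Kcnmb4 were lower, by -2.09 to -2.77. The calls of Kcna2, Kcnab3, Kcnd1 and Kcnip3 were each lost in 2 to 5 of the 15 fits that left out 1 library. Kcnmb4, a beta subunit of large-conductance calcium-activated channels, had a mean of 5.93 ± 5.97 in Treg KO against 31.3 ± 9.74 in Tconv KO. Kcnh2, Kcnk5, Kcnip4, Kcnrg and the noncoding Kcnq1ot1 passed in none of the comparisons. No Kcn gene passed the interaction (limma), where 0.150% of all genes did. An unadjusted p under 0.05 was found there for 2 of the 23 and for 963 of the 11314 genes tested. With Kcnf1 included, 18 of 24 Kcn genes were called between the WT cell types when only those 7 libraries were fitted, where 3990 of 11314 genes were. Between the KO cell types 11 of 24 were called when only those 8 libraries were fitted, where 2042 of 11314 genes were.

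**Figure D4:**
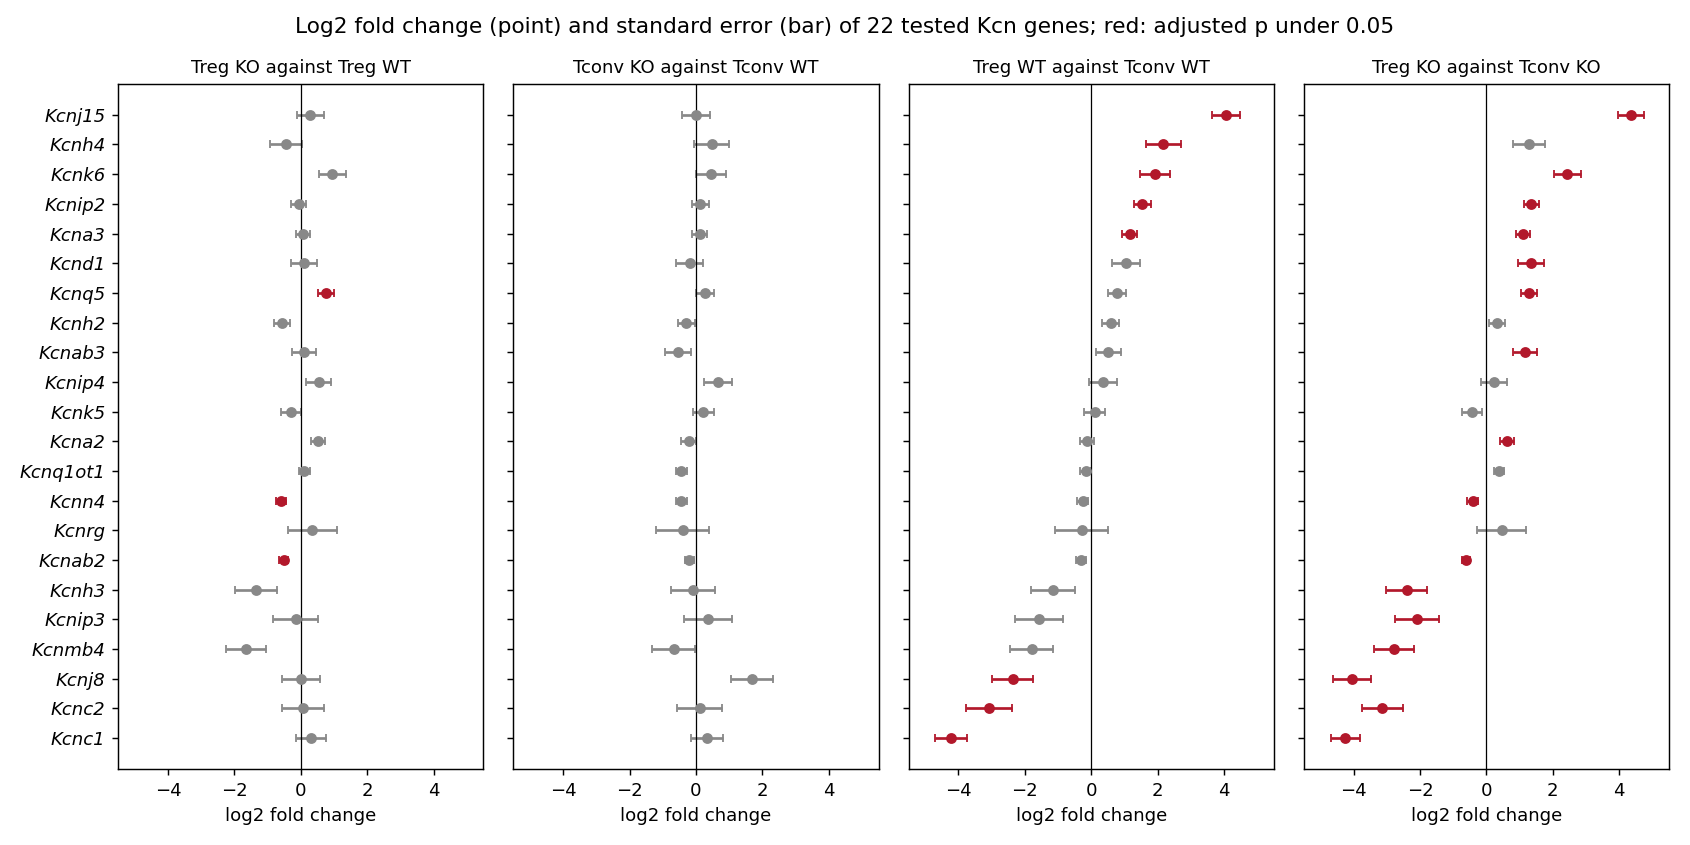
Log2 fold change (horizontal axis, with standard errors) of 22 tested Kcn genes, without Kcnf1, in 4 comparisons, in red where the adjusted p was under 0.05. The genotype panels on the left hold 3 red points between them, while the cell type panels on the right hold 8 in WT and 16 in KO. Of these, 5 in WT and 7 in KO are genes that passed the level filter through a single cell type.

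Of 29 genes of calcium entry and calcineurin signalling, all tested, 3 rose in Treg KO and 0 fell, against the background of 21.5%, and none was called by limma in Tconv KO against Tconv WT, where 0.681% of all genes were. The 3 were Itpr1, a calcium release channel, with 879 ± 94.5 in Treg KO and 632 ± 22.3 in Treg WT (adjusted p = 0.0014), Nfatc3, a target of calcineurin (0.32 ± 0.09 on the log2 scale, adjusted p = 0.018), and Atp2b1, a plasma membrane calcium pump (0.24 ± 0.08, adjusted p = 0.0499). The median of the list was 0.02. Between the cell types 13 of 29 were called in WT, 5 higher and 8 lower in Treg, against a background of 18.1%.

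Of 19 tested genes of the potassium pump, cotransporters and chloride channels, 3 rose and 2 fell in Treg KO, or 26.3%, a share near the background of 21.5%. Clns1a averaged 262 ± 15.96 in Treg KO and 322 ± 15.02 in Treg WT (adjusted p = 0.0099), and Clcn2, a chloride channel, 27.9 ± 5.11 in Treg KO and 49.5 ± 4.08 in Treg WT (adjusted p = 0.032). Wnk1, a kinase that regulates cation-chloride cotransport, averaged 5853 ± 493 in Treg KO and 4771 ± 401 in Treg WT (adjusted p = 0.013).

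Among 15 tested regulators of the Kcnn4 and Kcna3 channels 1 rose and 2 fell in Treg KO, also near the background of 21.5%. Nme2, a histidine kinase that activates the Kcnn4 channel, averaged 277 ± 87.2 in Treg KO and 591 ± 54.1 in Treg WT (-1.15 ± 0.20, adjusted p = 0.0017). Its close relative Nme1 could share reads with it, so the Nme2 value is uncertain. Mtmr6, a phosphatase that inhibits the Kcnn4 channel, averaged 714 ± 106 in Treg KO and 571 ± 31.3 in Treg WT (0.31 ± 0.09, adjusted p = 0.029). Csk, a kinase that restrains Lck, averaged 1899 ± 401 in Treg KO and 2380 ± 129 in Treg WT (-0.35 ± 0.11, adjusted p = 0.040). In Tconv KO against Tconv WT none of the 15 was called, where 0.681% of all genes were.

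Other states of the cells moved with genotype in the same libraries. Of 16 cell cycle genes 14 rose in Treg KO, against a background of 21.5%, and 6 in Tconv KO, against 0.681%. Among 12 naive T cell genes Treg KO had 3 that fell and 1 that rose, and of 14 activation and effector genes 5 rose and 0 fell, against the same 21.5%. Summed B cell markers were 218 to 287 in Treg KO and 153 to 230 in Treg WT, and CD8 T and NK cell markers 104 to 191 in Treg KO and 119 to 173 in Treg WT. Myeloid markers summed to 26.1 to 46.1 in Treg KO and 37.0 to 64.7 in Treg WT, and erythroid and platelet markers to 10.8 to 21.4 in Treg KO and 21.2 to 30.1 in Treg WT. The part of these states and cells in the channel values was not tested.

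The nearest patterns to the pair of genes that fell were broad ones. Kcnn4 was most like Gga1 (r = 0.97), Ssbp4 (r = 0.97) and Plec (r = 0.97), and Kcnab2 most like Pik3cd (r = 0.96), Ppp6r1 (r = 0.96) and Tcof1 (r = 0.95). Plec, a large cytoskeletal linker, averaged 4068 in Treg KO and 5540 in Treg WT, and 4956 in Tconv KO and 6576 in Tconv WT. Pik3cd, a lipid kinase subunit of lymphocytes, averaged 3565 in Treg KO and 4959 in Treg WT, and 5394 in Tconv KO and 6034 in Tconv WT. Over the 15 libraries Kcnn4 and Kcnab2 had r = 0.86 with each other, and Kcna3 and Kcnk6 r = 0.94, in points that share their groups.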

How the data were processed

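RNA was sequenced in 15 libraries. Sorted spleen cells were lysed in Qiazol and libraries made with an Illumina TruSeq RNA kit, per the labels. TopHat and build mm10 come from the submitters' processing notes. For its version and for the counting step, nothing was given in the sources used here. The authors deposited a normalized signal for 17594 genes, gene counts divided by 1 size factor per library: all values (100%) are whole multiples of 1 step within 0.001, so whole reads were recovered.

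Values were tested as log2(value + 1) in limma 3.58.1 (R 4.3.3, trend, 4 group means, 5 contrasts, two-sided) over the 11314 genes with at least 10 in at least 3 libraries, with Benjamini-Hochberg adjustment over all of them. Nothing says that samples came from separate animals, so p-values measure only the spread between these samples, which may be technical. Replicate numbers follow the order of the sample records and pair nothing. The members and lists were chosen with earlier results of these data known, so no count here is independent support.

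Named are the members, the Kcn genes that passed the filter, the 3 nearest table genes on each side of a member, the 3 genes most like each member by Pearson's r (mean of at least 50), up to 4 genes of each list with the smallest p in Treg KO against Treg WT, and marker genes; a few genes that the rule names are not reported here. Positions are from GENCODE vM21 (GRCm38); 16652 symbols matched, 687 more matched as older symbols, 31 were ambiguous and 224 unmatched. Promoters are RefSeq's, for 4 of the 5 members. Alternatives were edgeR 4.0.16 and DESeq2 1.42.0 on the whole reads, a pseudocount of 8, no filter, TMM scaling, only the groups compared, adjacent sample numbers as a block, the GC trend removed, all libraries thinned to 2635841 reads, and each library left out. Figures were drawn with matplotlib 3.10.9.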

Additional observations from a re-analysis of the deposited data

Results flagged for a closer look

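Kcnn4 in Treg KO was 552 in replicate 3, against 978 to 1054 in the other 3 Treg KO libraries. Its gap to the next library was 0.848 of the group's range, above Dixon's 95% limit for 4 samples, and it was the only value past that limit among 15 groups of 4 libraries in which the 5 genes were looked at, where chance marks about 1 in 20. That library also had the fewest reads, 2.64 M (mega-reads), and the lowest Kcnab2 and Kcna3 of its group. The difference of Treg KO from Treg WT in Kcnn4 was -0.39 without it.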

How the results depend on the processing

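Of 833 recomputed values of 35 results, 756 kept direction and side of the threshold (or lay within the spread) and 77 did not; beyond those named the cause was not tested. Counts of Kcn genes here include Kcnf1. The higher level of Kcnf1 in KO, and of Kcna3 and Kcnk6 in Treg, held under every alternative and without any 1 library. Kcnf1 was picked for its level in Treg KO in these libraries, so for it this is a description and no support. The falls of Kcnn4 and Kcnab2 in Treg KO held without any 1 library. Depth limits Kcnf1 in Treg WT (24 reads) and Tconv WT (2 reads), and its log2 values there moved with the prior count. Tconv KO against Tconv WT gave 7.39 with edgeR, 7.71 with DESeq2, 3.55 with a pseudocount of 8 and 6.56 with thinned reads; Treg KO against Treg WT gave 4.13 with the pseudocount of 8. Treg WT against Tconv WT gave 2.94 with edgeR, 3.22 with DESeq2, 0.54 with the pseudocount of 8 and 2.65 thinned, and the difference of the genotype effects -1.77, -2.05, 0.59 and -1.53, so its sign is not settled.

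With edgeR, Kcnn4 in Treg KO against Tconv KO (-0.38) was no longer called, nor without the level filter (-0.42) or with only the groups compared (-0.42). With only the groups compared, Kcnn4 in Treg KO against Treg WT (-0.60) was lost, Kcnk6 (0.96) passed, as with DESeq2 (1.04), and Kcnn4 (-0.26) and Kcnab2 (-0.31) passed in Treg WT against Tconv WT, where 3990 genes and 18 Kcn genes were called; 32 genes were called in Tconv KO against Tconv WT, and 2042 genes and 11 Kcn genes in Treg KO against Tconv KO. With the GC trend removed, 1599 genes and 2 Kcn genes were called in Treg KO against Treg WT, Kcnab2 (-0.20) was lost there and passed between the WT cell types (-0.35). DESeq2 called 236 genes in Tconv KO against Tconv WT. The interaction called 88 genes with DESeq2, 44 with adjacent sample numbers as a block, 32 with the GC trend removed and 8 thinned. On the whole reads edgeR called 2444 genes in Treg KO against Treg WT. Kcna3 turned sign in the interaction with the GC trend removed (0.17) and thinned (0.085), and in Tconv KO against Tconv WT thinned (-0.057), none called.

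Leaving out 1 library at a time gave 1393 to 2743 genes and 3 to 7 Kcn genes in Treg KO against Treg WT (7 without Treg KO replicate 2; 1393 without Treg WT replicate 1, 1498 without Treg WT replicate 4), Kcna3 at -0.0082 to 0.14 and Kcnk6 at 0.72 to 1.21. In Tconv KO against Tconv WT it gave 22 to 249 genes (249 without Treg KO replicate 3, and 22, 27 and 30 without Tconv WT replicates 1, 2 and 3), 1 to 2 Kcn genes, Kcna3 at -0.15 to 0.32, Kcnn4 at -0.47 to -0.39 and Kcnk6 at -0.032 to 0.82. Of the Kcn genes other than Kcnf1, none was called there with all libraries. The count includes Kcnf1, picked for its level, and is no result about the family. Kcnn4 was -0.30 to -0.20 in Treg WT against Tconv WT and -0.51 to -0.20 in Treg KO against Tconv KO. The interaction called 3 to 23 genes, with Kcna3 at -0.26 to 0.21 (also 0.022, 0.0039 and 0.037 above zero) and Kcnn4 at -0.25 to 0.057. The labels give the groups no shared replicate numbers. With adjacent sample numbers as a block, 12 Kcn genes were called between the WT cell types and 20 between the KO cell types, against 9 and 17 without it. With Kcnf1 left out these were 11 and 19, against 8 and 16. The share of all genes called with the block is not reported here, so no change of the family is read from these counts. Leaving Kcnf1 out of the family counts, leaving out libraries for the Kcnj15, Kcnj8 and Kcnc1 limits, and reading single Kcn calls under the alternatives were chosen after seeing the data.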
